A study of Caenorhabditis elegans with 2 samples.

Results

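The annular furrow collagen genes of the nematode Caenorhabditis elegans are dpy-2, dpy-3, dpy-7, dpy-8, dpy-9 and dpy-10. These 6 of 19985 annotated protein-coding genes were chosen by name, because loss of any of them disrupts the furrows. That rule uses no measured value, but earlier results of these data were known when the group was chosen. Chromatin had been immunoprecipitated from whole larvae of mixed sex at the fourth larval stage and sequenced (ChIP-seq). All animals came from strain OP212, which carries unc-119(ed3) III and the transgene ddEx58, and expressed the homeobox protein CEH-82 (F45C12.2) with GFP and FLAG at its C-terminal end. The 2 samples were biological replicates of this 1 group, and no untagged, wild-type or input sample was analysed here. The strain is a single transgenic line, and the labels do not settle whether its transgene is an array outside the chromosomes or an insertion. The epidermis, which makes the cuticle, is only one of the tissues in such a sample.

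The cuticle of this animal is a collagen coat that the epidermis secretes anew before each moult. Its annular furrows are shallow circumferential grooves, and the collagens examined here are needed for them. Animals that lack any of the genes are short and stout (Dumpy), and loss of furrows switches on osmotic, detoxification and antimicrobial responses in the epidermis. Each cuticle collagen has an amino-terminal part, a central stretch of Gly-X-Y triplets that winds into the triple helix, and cysteines that join chains together.

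Peaks were read from 3 deposited lists on the build ce11, for replicate 1 (4561 peaks), replicate 2 (8651) and the pooled reads of both (15658). The authors describe all 3 lists as holding background as well as peaks. Each peak has a signal value, the score that the authors' caller gave it. This value is compared only within a list, except where the closing section sets medians of different lists side by side. Its lowest and median values were 2.00 and 2.66 in replicate 1, 2.00 and 2.84 in replicate 2, and 2.00 and 2.95 in the pooled list. A summit was assigned to a gene when it lay from 2000 bp upstream of the start to 500 bp past the gene end. A negative distance lies upstream of the start. Read depth is not known from these lists, so a missing peak shows only that none was listed.

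Of the 6 furrow collagen genes, dpy-8 alone had a summit among the 1000 strongest pooled peaks, and it was not listed in replicate 1. A summit of these 1000 peaks was found at 6.34% of all protein-coding genes. No member had overlapping peaks of both replicates, against 5.61% of genes. The pooled list had summits at dpy-7, dpy-8 and dpy-10, replicate 2 at dpy-7 and dpy-8, and replicate 1 at dpy-2 and dpy-9. Over all genes the shares with a summit in these lists were 53.4%, 35.9% and 22.3%. The windows of dpy-3 held none in any list.

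Sequences under the strongest listed summits of dpy-8, dpy-2, dpy-7 and dpy-9 are given here. Each is 151 bases from the RefSeq genome of build WBcel235 (the coordinates of ce11), centred on the summit and read in the direction of the member's transcription. For dpy-8 (X:5150063-5150213, minus strand) and dpy-2 (II:6714592-6714742, plus strand), whose summits lay in coding exons, capitals mark in-frame glycine codons. The summits of dpy-7 (X:7539549-7539699, minus strand) and dpy-9 (IV:259515-259665, minus strand) lay upstream of the collagen gene. The first was in an intron of the neighbouring gene glb-16 and the second in intergenic sequence. In both sequences capitals were kept for 4 motif words described further on, and there are none.
dpy-8: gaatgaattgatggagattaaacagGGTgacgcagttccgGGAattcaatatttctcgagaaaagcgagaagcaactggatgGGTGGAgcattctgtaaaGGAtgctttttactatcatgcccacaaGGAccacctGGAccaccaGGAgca
dpy-2: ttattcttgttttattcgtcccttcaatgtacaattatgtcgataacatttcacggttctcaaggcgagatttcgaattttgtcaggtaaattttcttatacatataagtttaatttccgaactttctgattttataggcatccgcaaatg
dpy-7: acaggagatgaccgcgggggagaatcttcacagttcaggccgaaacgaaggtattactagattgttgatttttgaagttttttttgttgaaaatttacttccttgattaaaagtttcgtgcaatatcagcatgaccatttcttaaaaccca
dpy-9: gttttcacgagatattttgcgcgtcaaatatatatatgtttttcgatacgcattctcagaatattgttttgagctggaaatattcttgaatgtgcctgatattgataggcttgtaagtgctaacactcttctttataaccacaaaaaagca

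The dpy-8 sequence held 8 glycine codons, and those near its 3′ end fall in the regular spacing of the Gly-X-Y repeat. The dpy-2 sequence held 0 glycine codons among its 99 coding bases, and the rest of it was intron. The matching stretch at dpy-10 is not shown, because it is also annotated as untranslated sequence of the overlapping gene T14B4.19. It held 11 glycine codons.

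**Figure D1:**
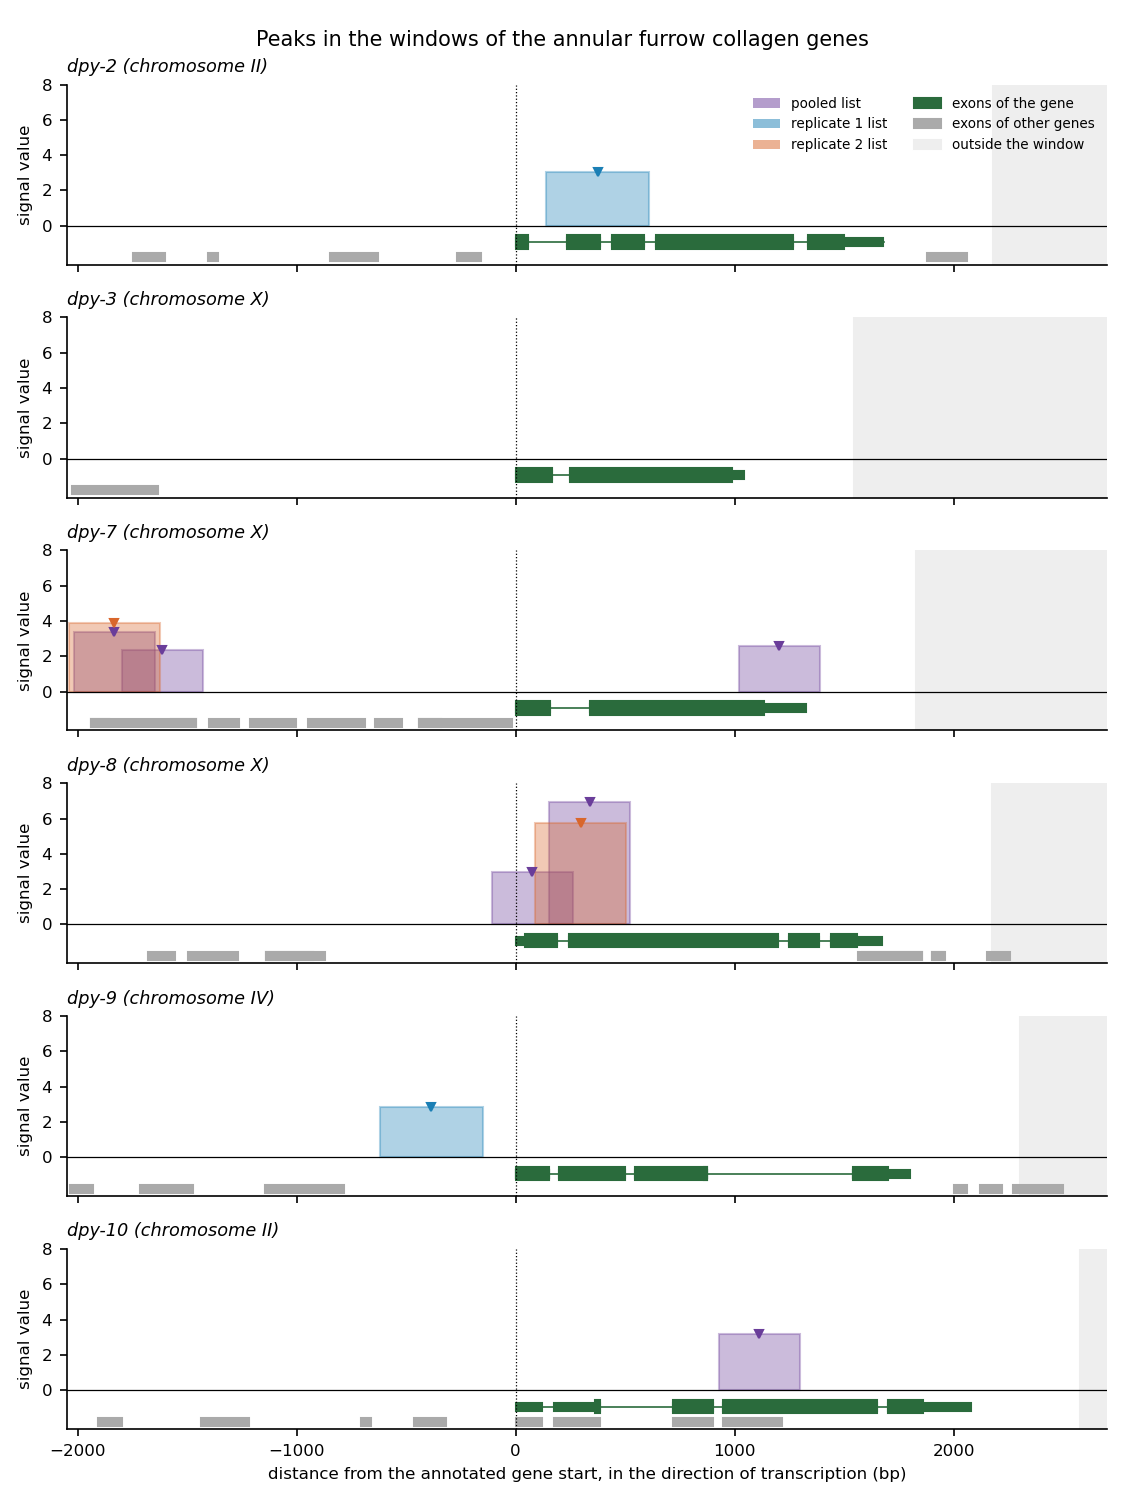
Peaks in the windows of the 6 genes, drawn by distance from the gene start in bp (x axis) against the signal value of each list (y axis). Coloured boxes span peaks, triangles mark summits, green boxes are exons of the gene and grey boxes exons of other genes over all transcripts; dpy-8 has the strongest peak, with signal values of 6.94 in the pooled list and 5.76 in replicate 2, and dpy-3 has none.

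Furrow collagen DPY-8 differs from the other members in length, with 452 residues against 302 to 380. Its gene, dpy-8 (WBGene00001070, X:5148804-5150476, minus strand, 4 exons), held 2 pooled summits. The stronger, of the peak at X:5149953-5150322, ranked 698 with a signal value of 6.94, and lay 338 bp downstream of the start in a coding exon. In replicate 2 the matching peak, X:5149971-5150386, ranked 523 with a signal value of 5.76 and had its summit at 297 bp. No peak of replicate 1 overlapped them, and the nearest summit of that replicate lay 21086 bp downstream of the start with a signal value of 2.38. The weaker pooled summit, 2.99 and rank 7624, lay 77 bp downstream of the start, also in a coding exon. Its peak overlaps the stronger one and the same replicate 2 peak.

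Higher strongest values than that of dpy-8 were found at 936 of the 10678 genes with a pooled summit (8.77%), and in replicate 2 at 722 of 7179 (10.1%). Its pooled and replicate 2 peaks had the highest −log10 q-value of their lists, 2.32 and 2.81, a limit that 2831 pooled peaks and 3545 replicate 2 peaks shared. Support by replicate 2 alone was common at this rank: among the 500 weakest of the 1000 strongest pooled peaks, 281 overlapped replicate 2 only, 50 replicate 1 only and 160 both. GC content within 75 bp of the stronger dpy-8 summit was 46.4%. The median was 43.0% over the 1000 strongest pooled summits, 41.7% over pooled summits in coding exons and 37.1% over all pooled summits. The part of base composition in the signal was not tested.

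The promoter of dpy-7 is widely used to drive transgenes in the epidermis. The gene itself (WBGene00001069, X:7536467-7537792, minus strand, 2 exons) had no summit within 1000 bp upstream of its start in any list. Its strongest pooled summit, X:7539439-7539808 with signal value 3.38 and rank 5709, lay at -1832 bp. Replicate 2 had its summit at the same base, with signal value 3.91 and rank 1813. A second pooled summit, 2.37, lay at -1614 bp, and its peak overlapped the same replicate 2 peak. Both pooled summits fall inside the globin gene glb-16, which ends just upstream of dpy-7 on the same strand. They lie 509 and 727 bp downstream of its start, in an intron of its coding transcript that a noncoding transcript keeps. The third pooled summit, 2.58 and rank 10367, lay 1204 bp downstream of the start in the 3′ UTR of dpy-7 and overlapped no peak of either replicate. The nearest replicate 1 summit lay at -18081 bp.

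The neighbours dpy-10 and dpy-2 lie head to head, with starts 2065 bp apart, so that 1936 bp of upstream sequence belong to the windows of both. No list had a summit in that shared stretch. The gene dpy-10, whose mutations serve as a visible marker in genome editing (WBGene00001072, II:6710149-6712227, minus strand, 5 exons), had 1 pooled summit, of the peak II:6710930-6711299. It ranked 6615 with a signal value of 3.18, lay 1112 bp downstream of the start in a coding exon, and overlapped no peak of either replicate. The gene dpy-2 (WBGene00001064, II:6714292-6715971, plus strand, 5 exons) had 1 summit in replicate 1 only. That peak, II:6714432-6714901, ranked 1442 with a signal value of 3.07, and its summit lay at 375 bp in a coding exon. It is also the nearest replicate 1 summit to the start of dpy-10, at -2440 bp, and falls outside that gene's window.

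The gene dpy-9 (WBGene00001071, IV:257403-259204, minus strand, 2 transcripts) had the only intergenic summit of a member. Replicate 1 placed it at -386 bp, in the peak IV:259355-259824, with a signal value of 2.86 and rank 1839. The pooled list had no peak overlapping it, and neither had replicate 2, whose nearest summit lay at -7057 bp. The shortest of the genes, dpy-3 (WBGene00001065, X:2144605-2145647, minus strand, 2 exons), had no summit in its window. Its nearest pooled summits lay just beyond, at -2079 bp in a coding exon of npax-2 (signal value 3.28) and at 2175 bp (3.16), which is 79 and 633 bp outside. Its nearest replicate summits were 11398 bp downstream of the start in replicate 1 and 20757 bp in replicate 2. The other pooled summits within 1000 bp of a window edge lay 146 bp past that of dpy-2 (2.92) and 446 bp upstream of that of dpy-9 (2.62).

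Counted over the members, 3 of 6 had a pooled summit, against 53.4% of all protein-coding genes. In replicate 1 the count was 2 of 6 against 22.3%, and in replicate 2 it was 2 of 6 against 35.9%. Overlapping peaks of both replicates were found at 0 of 6 members and at 5.61% of genes. A summit of the 1000 strongest pooled peaks was found at 1 of 6 members and at 6.34% of genes. In the authors' thresholded list of 57 peaks, where signal values began at 16.4, 0 of 6 members and 0.45% of genes had a summit. With 6 genes, 1 gene makes up 16.7% of the group, so these shares differ from those of all genes by about 1 gene or less, and no test of the difference was made. The median of the strongest pooled value was 3.38 over the 3 members that had one and 3.38 over the 10678 genes that had one. The windows held 0.244 pooled summits per kb in the members and 0.176 per kb over all protein-coding genes, with median window lengths of 4176.5 and 4526 bp. The members' value counts 6 summits, 4 of them in pairs of overlapping peaks at dpy-7 and dpy-8. The direction differed between the replicates: 0.0813 per kb in the members against 0.0516 over all genes in replicate 1, and 0.0813 against 0.0995 in replicate 2.

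**Figure D2:**
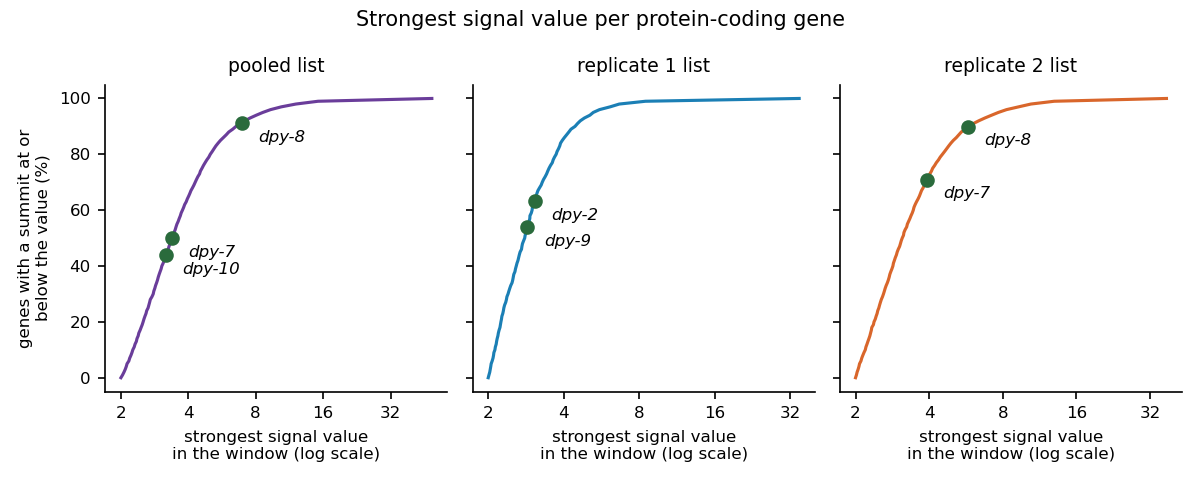
Strongest signal value in each gene's window (x axis, log scale) against the percent of genes with a summit that had this value or less (y axis), for the pooled, replicate 1 and replicate 2 lists. Lines are all protein-coding genes with a summit and points are the members; dpy-8 lies high on the pooled and replicate 2 lines, and dpy-7 and dpy-10 near the middle of the pooled line.

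Of the 6 pooled summits in the members' windows, 4 overlapped peaks in replicate 2 alone, 0 overlapped any in replicate 1, and 2 had no replicate peak. Those 4 were 2 pairs of overlapping pooled peaks, at dpy-7 and dpy-8. Each pair lay over a single replicate 2 peak, so the 4 are not separate places. Over all pooled peaks, 36.2% overlapped one of replicate 2 alone, 14.3% one of replicate 1 alone, 6.98% one of both and 42.5% neither. The 2 replicate 1 summits of members, at dpy-2 and dpy-9, overlapped no pooled peak. The replicates each listed summits at 2 members, and at different ones. Over all protein-coding genes 22.3% had a summit in replicate 1, 35.9% in replicate 2 and 5.61% overlapping peaks of both. Overlap is stricter than a summit in both lists, and the share of genes with the latter is not given here. The different members in the 2 lists are therefore not read as a result. The share of all replicate 1 peaks without a pooled peak is not given here.

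Of the 6 pooled summits in the members' windows, 3 lay in coding exons, all of them the member's own, while coding exons of any gene made up 36.7% of those windows. At the other 170 cuticle collagen genes 104 of 258 pooled summits lay in a coding exon of any gene (40.3%), with such exons at 38.7% of the windows. Over all protein-coding genes 29.4% did, with such exons at 31.2%. The members' 3 pooled coding summits, the replicate 1 summit at dpy-2 and the replicate 2 summit at dpy-8 all fell before the first Gly-X-Y run of their protein. Those at dpy-8 came from overlapping peaks and mark 1 place. In DPY-8 the summits of 6.94 and 5.76 fell at residues 80 and 67, ahead of the first run at residue 98. In DPY-10 the summit fell at residue 123, with the first run at 128, and in DPY-2 at residue 65, with the first run at 123. Within 75 bp of the summit, 21 of 51 codons at dpy-10 lay in Gly-X-Y runs. The same held for 8 of 51 at dpy-8 (summit of 6.94) and 0 of 34 at dpy-2. The peaks at dpy-10 and dpy-8 thus reached into the repeats. The part before the first run made up 29.8% of the members' residues. In the other cuticle collagens it made up 31.4% of residues, and there 20 of 77 pooled summits in the gene's own coding exons fell before the first run, 54 within the repeats and 3 after them. In replicate 1 of those genes 2 of 31 fell before it and in replicate 2 it was 8 of 52. This split was chosen after the positions had been seen and was not tested.

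**Figure D3:**
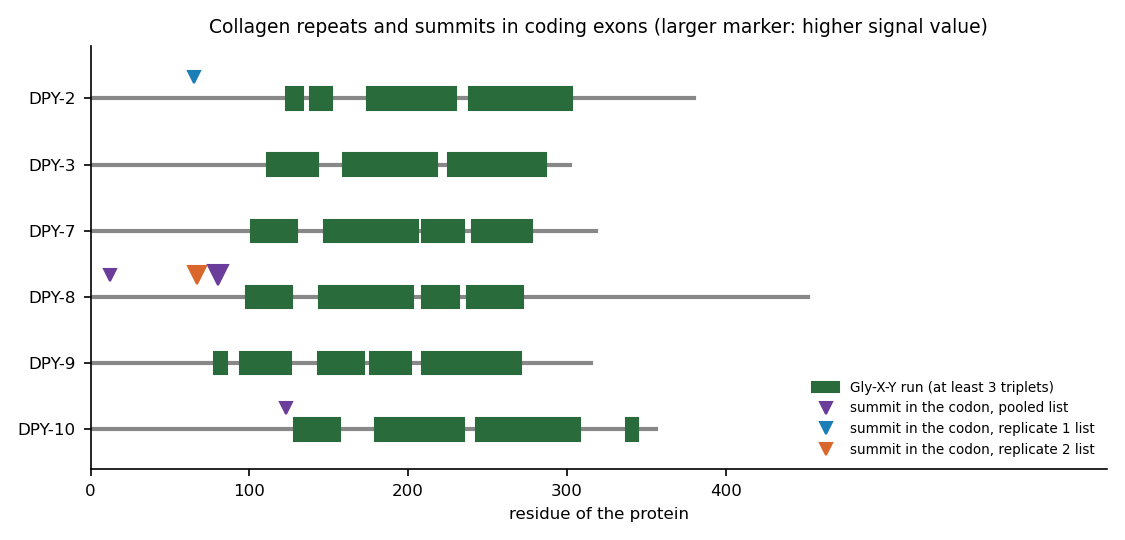
The 6 furrow collagens drawn by residue (x axis), with runs of at least 3 Gly-X-Y triplets as green boxes and summits in coding exons as triangles, coloured by list and larger with a higher signal value. All triangles lie to the left of the first green box of their protein.

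The collagen label was checked from the coding exons. Each of the 6 genes encodes 50 to 54 Gly-X-Y triplets in runs of at least 3, which make up 33.2% of DPY-8 and 51.7% of DPY-3. DPY-8 extends furthest past its last run, which ended at residue 272 of 452. The proteins held 7 to 11 cysteines. The closest pair was DPY-3 and DPY-9, with 47.0% identical residues over the longer protein, followed by DPY-7 and DPY-9 with 39.3%. The neighbours DPY-2 and DPY-10 shared 38.9%. DPY-8 had the lowest values, at 26.1 to 29.4% with the other members. Each of these was taken over its own 452 residues, the longest of the group, which lowers the percentage by itself. Identity over the shorter protein was not measured. The cuticle collagens closest to the members outside the group were COL-43 for DPY-2 (36.8%), COL-169 for DPY-3 (48.3%), COL-161 for DPY-7 (39.3%), COL-121 for DPY-8 (35.0%), COL-12 for DPY-9 (40.8%) and COL-34 for DPY-10 (39.6%). In the pooled list, col-169 had 4 summits (strongest value 4.96), col-12 had 2 (5.97), col-161 had 1 (4.04), and col-43, col-121 and col-34 had 0. Replicate 1 listed summits at col-43 and col-12 only, the closest collagens of dpy-2 and dpy-9, the only members with one in that replicate. Replicate 2 listed summits at col-121 and col-169 only, and among the members at dpy-8 and dpy-7. There dpy-8 and col-121 matched, while dpy-3 with col-169 and dpy-7 with col-161 did not. Over all protein-coding genes 22.3% had a summit in replicate 1 and 35.9% in replicate 2, and likeness between the pairs was not tested.

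The other gene groups of cuticle formation were set beside the members. Among the 14 body shape and strut collagens, 13 had a pooled summit, 7 had overlapping peaks of both replicates and 7 a summit of the 1000 strongest. The shares over all protein-coding genes were 53.4%, 5.61% and 6.34%. Their highest values were at dpy-4 (14.3), dpy-5 (12.6), sqt-3 (10.8) and bli-2 (10.5), with summits 1107 to 1985 bp downstream of the gene's start and outside its coding exons. Of the 156 numbered collagens, 113 had a pooled summit, 34 overlapping peaks of both replicates and 42 a summit of the 1000 strongest. The highest was a value of 18.3 shared by the neighbours col-93 and col-94, followed by 17.2 shared by col-20 and col-73. Medians of the strongest pooled value were 6.25 in the body shape and strut group and 4.72 in the numbered group. The furrow genes had smaller shares and a lower median than either, a difference that was not tested, since the groups differ in size and many collagen genes lie in clusters that share peaks.

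Enzymes and carriers that process or secrete collagen had a pooled summit at 12 of 13 genes and one of the 1000 strongest at 3. The highest were at pdi-2, a protein disulfide isomerase (12.3, in a coding exon), dpy-31, the procollagen C-proteinase (9.31), phy-2, a prolyl 4-hydroxylase subunit (6.14), and dpy-11, a thioredoxin-like enzyme (6.01). Among regulators of the epidermis and the moult, all 12 had a pooled summit and 2 one of the 1000 strongest. These were myrf-1, a membrane-bound transcription factor (8.99), and sma-9, a zinc finger protein of the body size pathway (6.65). The ligand gene of that pathway, dbl-1 (5.57), and the zinc finger gene blmp-1 (5.37) followed. Genes that respond to loss of furrows, or that relay that response, had a pooled summit at 12 of 15 and one of the 1000 strongest at 2, osm-11 (8.81) and nlp-31 (7.06). Next were cnc-2, which like nlp-31 encodes an antimicrobial peptide (5.54), and dapk-1, a death-associated protein kinase (4.99). Overlapping peaks of both replicates were found at 3 genes in each of these 3 groups. All protein-coding genes had a pooled summit at 53.4%, one of the 1000 strongest at 6.34% and overlapping peaks of both replicates at 5.61%. Windows of these groups had medians of 5240 to 8013.5 bp, against 4176.5 bp for the members, and a longer window has more room for a summit.

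**Figure D4:**
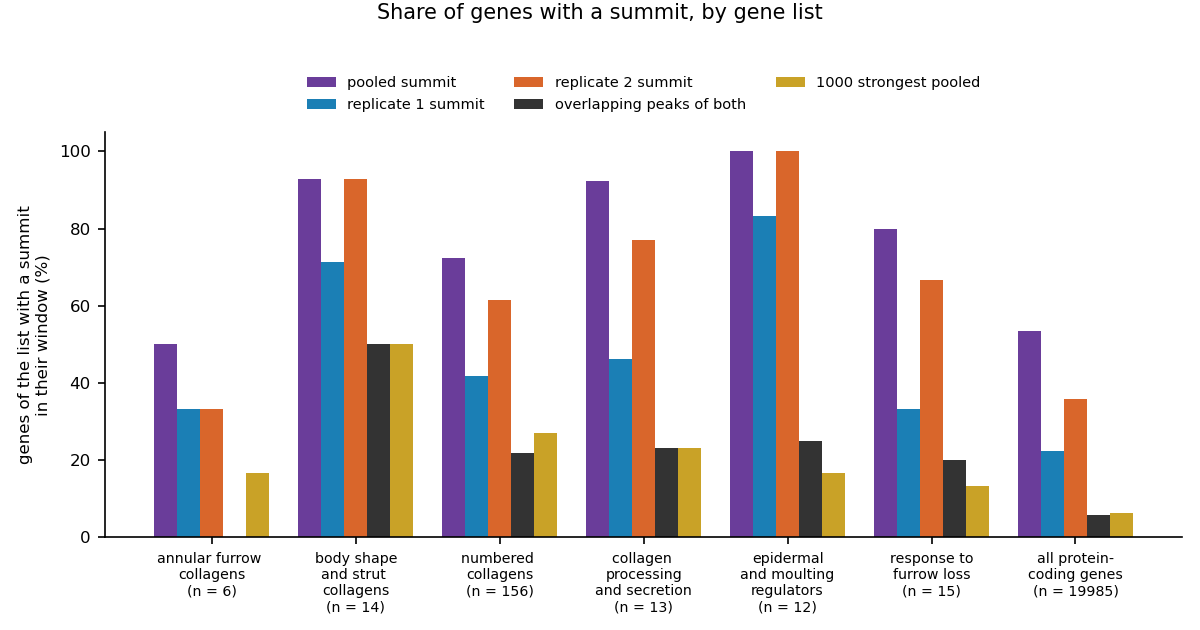
Percent of genes in each list (y axis) with a summit in their window from the pooled, replicate 1 or replicate 2 list, with overlapping peaks of both replicates, or with a summit of the 1000 strongest pooled peaks. The furrow collagens stand at 50% for the pooled list and 0% for both replicates, beside 53.4% and 5.61% of all protein-coding genes.

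Promoters of the members, from 250 bp before to 50 bp after the start, were searched on both strands for 4 words, none of which contains another: TAATTA, bound by many homeodomains, AGATAA, bound by GATA factors, AGGTCA, the core word of nuclear receptors, and GAGAGA, a GA repeat. AGGTCA was found in 4 of 6 members, dpy-3, dpy-7, dpy-8 and dpy-9, and in 8.27% of all protein-coding promoters. TAATTA was found at dpy-3 alone, against 15.5% of promoters. AGATAA was found at dpy-3 and dpy-7, against 21.2%, and GAGAGA at dpy-2, dpy-3 and dpy-9, against 21.8%. No word lay within 75 bp of the strongest summit of any of the 5 members that had one. Around all pooled summits TAATTA was found at 6.25%, AGATAA at 8.46%, AGGTCA at 3.95% and GAGAGA at 12.18%. Around the 1000 strongest, TAATTA was found at 5.1%, AGATAA at 7.1%, AGGTCA at 3.2% and GAGAGA at 23.6%. The stretches with AGGTCA or its reverse complement in capitals are shown in the direction of transcription for dpy-8 (X:5150487-5150552), dpy-3 (X:2145774-2145839) and dpy-9 (IV:259291-259356), all on the minus strand.
dpy-8: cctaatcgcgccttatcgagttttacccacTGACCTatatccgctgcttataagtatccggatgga
dpy-3: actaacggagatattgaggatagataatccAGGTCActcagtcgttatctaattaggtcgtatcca
dpy-9: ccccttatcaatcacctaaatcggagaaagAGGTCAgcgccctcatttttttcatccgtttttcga

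The word began at -46 bp in dpy-8, at -162 bp in dpy-3 and at -122 bp in dpy-9. In dpy-7 it began at -216 bp, in untranslated sequence of glb-16 that is not shown. At dpy-8 the nearest pooled summit, that of 2.99, lay 123 bp from it. At the other 3 genes the nearest pooled summit was 1398 bp or more away. The replicate 1 summit of dpy-9 lay nearer to its word, at -386 bp, and the word was outside that peak. These matches describe the sequence and show no binding.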

How the data were processed

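ChIP-seq of GFP-FLAG-tagged CEH-82 in whole larvae was described by peak lists, and no reads were processed here. Per the names the authors gave them, the ce11 lists of the replicates and of pooled reads hold peaks with background, meant as input to the irreproducible discovery rate (IDR), and the thresholded list holds their optimal IDR peaks. No source used here gives the aligner, peak caller, versions or IDR threshold, and a possible control that the labels name was not analysed here. The signal value is a score deposited by the authors, on an unstated scale. The −log10 q-value deposited by the authors has an upper limit that many peaks share, so peaks were ranked by signal value. Lists on ce10 were not used here, since the annotation is of ce11.

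Genes and exons came from Ensembl release 115 (WBcel235) and sequence from the RefSeq assembly of that build. Summits are the peak start plus the listed summit offset, written 1-based. A summit in several annotated features took the coding exon before the UTR, then a noncoding gene other than a piRNA, then the intron. Shares are of all 19985 protein-coding genes. No protein or promoter table was at hand, so proteins were translated from coding exons (Biopython 1.88, global alignment, BLOSUM62), and promoters were cut from the genome. Window counting was tested on made-up summits and found 200 of 200.

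With 2 replicates of 1 group and no control list, no test between groups was possible, and results are counts and medians beside those of all genes. Depth per sample is unknown. Named genes were the 6 members with every summit, the genes at those summits, up to 4 genes of each list by pooled signal value, and the closest collagen of each member. The gene at a summit just outside a window, npax-2, was named after its values were seen. The rule for the members uses no measured value, but the members, gene lists and motif words were chosen with earlier results of these data known. Alternatives changed the window, annotation, list, threshold and assignment.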

Additional observations from a re-analysis of the deposited data

How the results depend on the processing

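No paired analysis was possible because the study has 1 group. Of 45 values recomputed under the alternatives, 29 stayed at or near the reported size and 16 moved. Counts and summits per kb were compared by size only, so a count could stay near while the members behind it changed. The median signal value was called near when it differed by less than 1.32. That is the standard deviation of the values from the 2 replicate lists, which are themselves among the alternatives. Those values come from different lists and different members, so this limit is only a rough guide. The number of members with a pooled summit, 3, became 1 (dpy-8) with a narrow window (1000 bp before the start, 500 bp after it), where 24.98% of all genes had one, and 6 with a window from 5000 bp upstream, where 67.0% had one. It became 5 when any base of a peak counted (55.5% of genes), 1 with the 1000 strongest peaks (6.34%) and 0 with the thresholded list (0.45%). With the list of either replicate alone it was 2, of dpy-7 and dpy-8 without replicate 1 and of dpy-2 and dpy-9 without replicate 2. The count at the 1000 strongest peaks, 1, ranged from 0 without replicate 2 to 1 without replicate 1, and was 0 with the 300 strongest. The median strongest signal value, 3.38, became 6.94 with the narrow window, where only dpy-8 was left (3.19 over all genes), and ranged from 2.97 without replicate 2 (2.80 over all genes) to 4.83 without replicate 1 (3.10). Summits per kb, 0.244 in members against 0.176 over all genes, were 0.0813 against 0.0516 without replicate 2 and turned to 0.0813 against 0.0995 without replicate 1. They were 0.0406 against 0.0134 with the 1000 strongest peaks, and 0 in members with the thresholded list. In promoters of 100 bp before the start, AGGTCA was found at 1 member (dpy-8) and 3.08% of all promoters, AGATAA at 0 and 8.67%, and GAGAGA at 0 and 8.76%. Overlapping peaks of both replicates stayed at 0 of 6 under all 5 alternatives tried. Only the window from 5000 bp upstream could have raised this count. The others made the rule stricter, so a count of 0 could not change, yet they are among the 29 values that stayed. Fewer peaks, fewer bases or a shorter window lower these counts by construction. The unknown depth of each list limits them as well: replicate 1 listed 4561 peaks and replicate 2 8651.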
